A study of Mus musculus with 18 samples.

Results

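Cholesterol and fatty acid synthesis in cultured mouse mammary fibroblasts was followed through 30 genes, chosen by name from the 55486 genes of a read count table. They comprised 6 genes for the mevalonate and isoprenoid steps, 11 for the squalene and sterol ring steps, 4 for Srebf regulators and a sterol carrier, 7 for fatty acid synthesis and 2 for sterol efflux. All 30 passed the filter on low counts, with a lowest count of 29 in any library (Fdps). The results turn most on Dhcr7 (ENSMUSG00000058454) at chr7:143823145-143848410, Cyp51 (ENSMUSG00000001467) at chr5:4081145-4104746, Insig1 (ENSMUSG00000045294) at chr5:28071363-28078662, Srebf1 (ENSMUSG00000020538) at chr11:60199089-60222581 and Abca1 (ENSMUSG00000015243) at chr4:53030787-53159895 (GRCm38, whole genes as in the table). The cells were primary normal fibroblasts (NFs) of FVB/n mice, sorted as CD26- or CD26+, where CD26 is the surface peptidase encoded by Dpp4. Both types spent 7 days either in control conditioned medium (3 libraries each) or in conditioned medium (CM) of WEPtn tumor cells (6 libraries each), which gave 18 libraries. WEPtn is a mouse model of invasive lobular carcinoma (ILC) in which Cre, driven by the Wap promoter of milk-producing epithelium, deletes floxed alleles, those of Cdh1 among them. Each of 6 tumor lines (13-MCB-17, 10-SJK-221, 18-MCB-12, 13-MCB-44, 13-MCB-90 and 13-MCB-138) gave the CM of 1 CD26- and 1 CD26+ culture. The NFs, gated as cells without EpCAM, CD49f, CD45 and CD31, came from females aged 8 to 16 weeks that carried either the floxed alleles of that model but no WapCre or the mTmG reporter, with on average 4 to 6 animals pooled for a sort. Which of these donors gave which library is not in the labels, nor whether the control libraries of a cell type came from separate sorts, so p-values measure the spread between these samples, which may be technical.

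Cells make cholesterol from acetyl-CoA by way of mevalonate, isoprenoid diphosphates, squalene and a series of sterol intermediates. When membrane sterol is low, SREBP-2 (encoded by Srebf2) leaves the endoplasmic reticulum and turns on the enzymes of this route, and when sterol is plentiful INSIG proteins hold it back. SREBP-1 (Srebf1) acts more on fatty acid synthesis, and the oxysterol-sensing LXR receptors raise the efflux pumps Abca1 and Abcg1.

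Total counts ran from 9725723 to 14585349 per library. Dpp4 mRNA did not follow the sort in control medium, where it reached at most 0.171 CPM (counts scaled to an equal library total) in CD26- NFs and 0.0809 CPM in CD26+ NFs. In tumor CM it was at 0.0776 to 0.881 CPM in CD26- and 0.715 to 7.80 CPM in CD26+ NFs. The 10 fibroblast markers summed to 16534 to 18495 CPM in control medium and 9816 to 21491 CPM in CM in CD26- NFs, and to 62532 to 79515 CPM and 29198 to 52139 CPM in CD26+ NFs. Epithelial genes were present as well: 10 such markers summed to between 3212 and 5366 CPM per CD26- library, and per CD26+ library to between 716 and 1738 CPM. The 10 immune cell markers summed to 24.4 to 55.0 CPM per library, mostly from Csf1r (11.0 to 26.8 CPM) and Cd14 (5.79 to 29.0 CPM), while the pan-leukocyte marker Ptprc did not exceed 0.256 CPM. The 8 endothelial markers summed to 2.27 to 9.23 CPM, with Cdh5 at up to 4.97 CPM and Cldn5 at up to 0.0844 CPM. In bulk libraries, fewer cells of a type and less RNA per cell cannot be told apart.

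Promoter stretches are shown for Hmgcs1, the 1 member whose window matched the sterol regulatory element pattern searched. Further stretches are shown for 6 members that differed among tumor lines, chosen for holding a CCAAT. RefSeq promoter windows (GRCm38.p6, 250 bases before to 50 after a start site) matched 23 of the 30 members. The sterol regulatory element was searched as 1 pattern, TCACNCCAC (N any base, both strands). That pattern was found in 1 member, Hmgcs1, and in 1.24% of all 32851 windows, and other forms of the element were not searched. CCAAT, read on both strands, was found in 20 of the 23 members and in 37.4% of all windows, and the GC box GGGCGG in 19 of 23 members and 35.7% of all windows. Of the 10 members that passed the test among lines given further on, 8 had a window. The 6 shown after Hmgcs1 are those of the 8 whose first listed window held a CCAAT between bases -150 and -1. Each stretch of 150 bases runs 5′ to 3′ and ends at base -1, with TCACNCCAC and CCAAT in capitals. Where CCAAT lies on the other strand it reads ATTGG, and no motif in capitals overlaps another.
Hmgcs1: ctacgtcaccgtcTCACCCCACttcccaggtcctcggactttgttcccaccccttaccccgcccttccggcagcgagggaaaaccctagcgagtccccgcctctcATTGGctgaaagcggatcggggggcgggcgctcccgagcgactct
Lss: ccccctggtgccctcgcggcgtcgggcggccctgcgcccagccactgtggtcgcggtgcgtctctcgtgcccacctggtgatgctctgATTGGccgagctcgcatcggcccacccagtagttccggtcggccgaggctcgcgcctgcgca
Cyp51: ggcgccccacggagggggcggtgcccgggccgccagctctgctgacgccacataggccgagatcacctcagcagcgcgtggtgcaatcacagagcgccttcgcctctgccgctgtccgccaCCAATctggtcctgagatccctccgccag
Nsdhl: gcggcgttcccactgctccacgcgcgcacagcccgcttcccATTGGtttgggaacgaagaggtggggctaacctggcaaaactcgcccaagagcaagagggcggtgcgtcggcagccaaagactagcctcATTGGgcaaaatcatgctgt
Hsd17b7: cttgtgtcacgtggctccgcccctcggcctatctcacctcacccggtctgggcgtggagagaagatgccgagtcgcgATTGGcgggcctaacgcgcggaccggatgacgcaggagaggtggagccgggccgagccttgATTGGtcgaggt
Sc5d: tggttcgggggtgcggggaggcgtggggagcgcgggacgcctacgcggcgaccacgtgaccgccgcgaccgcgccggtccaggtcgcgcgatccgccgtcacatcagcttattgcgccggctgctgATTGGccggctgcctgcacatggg
Srebf2: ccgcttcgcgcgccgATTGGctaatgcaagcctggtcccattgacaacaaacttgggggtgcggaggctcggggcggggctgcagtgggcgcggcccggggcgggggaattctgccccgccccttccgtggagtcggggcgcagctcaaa
The stretches were Hmgcs1 at chr13:119690201-119690350 (plus strand), Lss at chr10:76531455-76531604 (plus strand), Cyp51 at chr5:4104698-4104847 (minus strand), Nsdhl at chrX:72918371-72918520 (plus strand), Hsd17b7 at chr1:169969206-169969355 (minus strand), Sc5d at chr9:42264301-42264450 (minus strand), Srebf2 at chr15:82147119-82147268 (plus strand). They are of the reference strain, not of FVB/n, and a match of letters is a description, not a bound site.

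Per kilobase of exon, the 4 most abundant members in CD26- NFs in control medium were genes of fatty acid synthesis. There the stearoyl-CoA desaturase Scd2 had a mean level of 114 RPKM (CPM divided by the exon length in kilobases), Acly, which makes cytosolic acetyl-CoA, 65.2 RPKM, Scd1 61.9 RPKM and fatty acid synthase, Fasn, 32.6 RPKM. Of the sterol enzymes, the lanosterol demethylase Cyp51 (28.3 RPKM) and the HMG-CoA synthase Hmgcs1 (26.8 RPKM) stood highest. The isopentenyl isomerase Idi1 (2.67 RPKM), the farnesyl diphosphate synthase Fdps (1.56 RPKM) and the sterol reductase Tm7sf2 (1.28 RPKM) were the lowest of these enzymes, and the acetate-activating enzyme Acss2 the lowest member (0.468 RPKM). Some counts are uncertain because exon sequence is shared. Stretches of 65 bases that also occur in other genes made up 28.1% of Acaca, 24.3% of Fdps, 24.3% of Idi1, 23.4% of Fdft1 (shared with Ctsb, on the opposite strand, and a predicted gene), 10.4% of Hmgcs1 and 9.24% of Tm7sf2.

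The first question was what tumor CM did to these genes in CD26- NFs. Most sterol enzymes had lower mean levels in CM, but by edgeR's quasi-likelihood test in 1 fit of all 18 libraries, which is meant below where no other fit is named, none of the members passed an adjusted p of 0.05, where 7.88% of all tested genes were higher and 7.28% lower. At an unadjusted p under 0.05 there were 2 members lower (14.7% of all genes) and 0 higher (15.8%), and DESeq2 called 1 member lower, Dhcr7. A negative log2 fold change was found for 16 of the 17 sterol synthesis enzymes, with a median of -0.26 against 0.01 for all tested genes. Hmgcs1 was at 117, 124 and 128 CPM in control medium and at 82.3 to 110.3 CPM (median 93.7) in CM. The groups did not overlap, yet its log2 fold change of -0.38 (SE 0.22, adjusted p = 0.25) did not pass. Dhcr7, which makes cholesterol from 7-dehydrocholesterol, was at 94.5, 96.4 and 96.4 CPM in control and at 59.7 to 88.9 CPM (median 73.8) in CM, also without overlap, with a log2 fold change of -0.39 (SE 0.14, adjusted p = 0.064). Squalene epoxidase, Sqle, was at 89.3, 97.7 and 101 CPM in control and at 61.7 to 85.8 CPM (median 67.0) in CM, with -0.43 (SE 0.19, adjusted p = 0.13). Mvk, mevalonate kinase, was the sterol enzyme with a positive value, 0.07 (SE 0.13, adjusted p = 0.77). Epithelial markers had lower levels in CM as well. Of 9 tested, 8 had a negative log2 fold change (median of the 9 -0.41) and 0 passed, and all 10 summed to 4781 to 5366 CPM in control and 3212 to 5184 CPM in CM. Of 10 fibroblast markers 4 were higher and 2 lower in CM, and of 4 endothelial markers tested 1 was higher. The part of these lists in the result was not tested.

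The CM of different lines gave different levels, and a fit with the line as a block, which pairs the CD26- and CD26+ cultures of a line, called more members. The controls have no line, so for CM against control the block only takes the spread between lines out of the error. Its calls there hold for these 6 lines as given. In CD26- NFs it called 10 members lower and 0 higher, where 26.5% of all genes were called in either direction. They were the sterol enzymes Hmgcs1, Fdft1, Sqle, Cyp51, Nsdhl, Hsd17b7, Ebp and Dhcr7 together with Insig1 and Scd2. The smallest adjusted p-values in that fit were those of Dhcr7 (0.00012), Cyp51 (0.00071) and the sterol ketoreductase Hsd17b7 (0.0012). A fit of the CD26- libraries alone called 6 members, all lower, and the share of all genes called in that fit was not recorded. Without the block, leaving out the CD26- or the CD26+ culture in CM of 13-MCB-44 (replicates 7 and 16) brought 1 member past the threshold. Acly, Acss2, Acaca, Fasn, Elovl6 and Scd1 passed neither with nor without the block. The log2 fold change of Acly was -0.04, with a 95% interval from -0.16 to 0.08, and that of Acaca, which makes malonyl-CoA, was 0.10 (from -0.04 to 0.23).

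In CD26+ NFs, tumor CM moved 7 members past the threshold. The efflux pump Abca1 and the fatty acid elongase Elovl6 rose, where 15.2% of all genes rose, and Mvd, Ebp, Srebf1, Insig1 and Stard4 fell, where 13.4% of all genes fell. Abca1, which loads cholesterol onto apolipoprotein A-I, was at 61.0, 76.5 and 78.4 CPM in control and at 94.5 to 146 CPM (median 128) in CM. Every CM library lay above the control range, and the log2 fold change was 0.79 (SE 0.18, adjusted p = 0.0038). Elovl6, which extends palmitate, was at 34.0, 35.8 and 36.4 CPM in control and at 35.4 to 50.1 CPM (median 47.4) in CM, where the culture in CM of 13-MCB-17 lay within the control range. Its log2 fold change was 0.36 (SE 0.10, adjusted p = 0.010), and without control replicate 11 its adjusted p was 0.065. The second pump, Abcg1, was at 6.74, 8.42 and 8.83 CPM in control and at 9.55 to 13.7 CPM (median 11.1) in CM, all CM libraries being higher, with 0.50 (SE 0.19, adjusted p = 0.059). It passed with DESeq2 (adjusted p = 0.046), in a fit of the CD26+ libraries alone (0.028) and without CD26- CM replicate 4, 5 or 7 (0.022 to 0.049).

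The members that fell in CD26+ NFs belong to both regulation and synthesis. Insig1, which retains SREBP proteins and is itself an SREBP target, was at 33.0, 36.5 and 38.8 CPM in control and at 14.0 to 35.5 CPM (median 18.3) in CM, a log2 fold change of -0.71 (SE 0.26, adjusted p = 0.046). The cultures in CM of 13-MCB-44 and 13-MCB-138 were close to control and the other 4 far below. Stard4, a cytosolic sterol carrier, was at 37.0, 38.0 and 42.1 CPM in control and at 14.3 to 39.0 CPM (median 22.2) in CM, a log2 fold change of -0.69 (SE 0.22, adjusted p = 0.025). Srebf1 was at 101, 101 and 107 CPM in control and at 82.6 to 91.6 CPM (median 88.7) in CM, a small fall without overlap (-0.23, SE 0.06, adjusted p = 0.0066). The sterol isomerase Ebp (-0.52, SE 0.17, adjusted p = 0.027) and the mevalonate diphosphate decarboxylase Mvd (-0.43, SE 0.15, adjusted p = 0.037) also fell. Hmgcs1 was at 112, 117 and 119 CPM in control and at 49.9 to 122 CPM (median 64.2) in CM, and its log2 fold change of -0.58 (SE 0.22, adjusted p = 0.054) did not pass. It passed with DESeq2 (adjusted p = 0.042), upper-quartile scaling (0.041), no filter (0.046) and without replicate 16 (0.014) or 18 (0.0038). Over the 17 sterol enzymes the median was -0.25, with 14 values negative, against 0.00 for all tested genes.

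Several of these calls did not hold when 1 library was left out. Srebf1 and Abca1 passed in each of the 18 fits that left out 1 library. Insig1 did not pass in 12 of them (adjusted p 0.052 to 0.13), each of which left out 1 of the 6 controls of both cell types, CD26- CM replicate 6 or 8 or CD26+ CM replicate 13, 14, 15 or 17. Leaving out replicate 10, 11 or 12 of the CD26+ controls, whichever it was, also ended the calls of Mvd, Ebp and Stard4. Mvd did not pass without CD26+ CM replicate 13, 14, 15 or 17 either (0.057 to 0.095 over its 7 such fits) and Ebp not without replicate 14 (0.050 to 0.072 over 4 fits), while Stard4 was at 0.052 to 0.089 in its 3. The number of members called was 3 without control replicate 10, 2 without 11, 3 without 12, 4 without replicate 14 (CM of 10-SJK-221) and 12 without replicate 16 (CM of 13-MCB-44). A fit of the CD26+ libraries alone called 4, of which 3 were higher. For that fit and those without 1 library, the share of all genes called was not recorded. With the line as a block 18 were called, 4 higher and 14 lower, where 36.6% of all genes were called. Those added on the lower side included Hmgcs1 (adjusted p = 0.00085), Cyp51 (0.0012), Sqle (0.0041) and Srebf2 (0.0081), and those added on the higher side were Abcg1 (0.026) and the lathosterol desaturase Sc5d (0.0042). Dividing cell markers moved with CM in CD26+ NFs, where 9 of 10 were lower. They summed to 910 to 966 CPM in control and 273 to 988 CPM in CM, against 900 to 995 and 856 to 1130 CPM in CD26- NFs. The summed fibroblast markers were lower in CM in CD26+ NFs without overlap (values given above), with 5 of the 10 lower, among them Col1a1, Col1a2 and Col3a1, and 3 higher, Dcn, Lum and Pdgfra. Immune cell markers were higher in CM in CD26+ NFs without overlap, at 24.4 to 29.9 CPM in control and 31.2 to 44.2 CPM in CM, and of 4 tested 1 passed, Cd14. Endothelial markers summed to 2.27 to 3.11 CPM and 2.27 to 4.44 CPM, and of 4 tested 1, Vwf, was higher. Fat cell markers summed to 45.6 to 69.5 CPM in control and 49.5 to 118 CPM in CM, and of 6 tested 1 was higher and 1 lower. The part of these lists in the result was not tested.

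**Figure D1:**
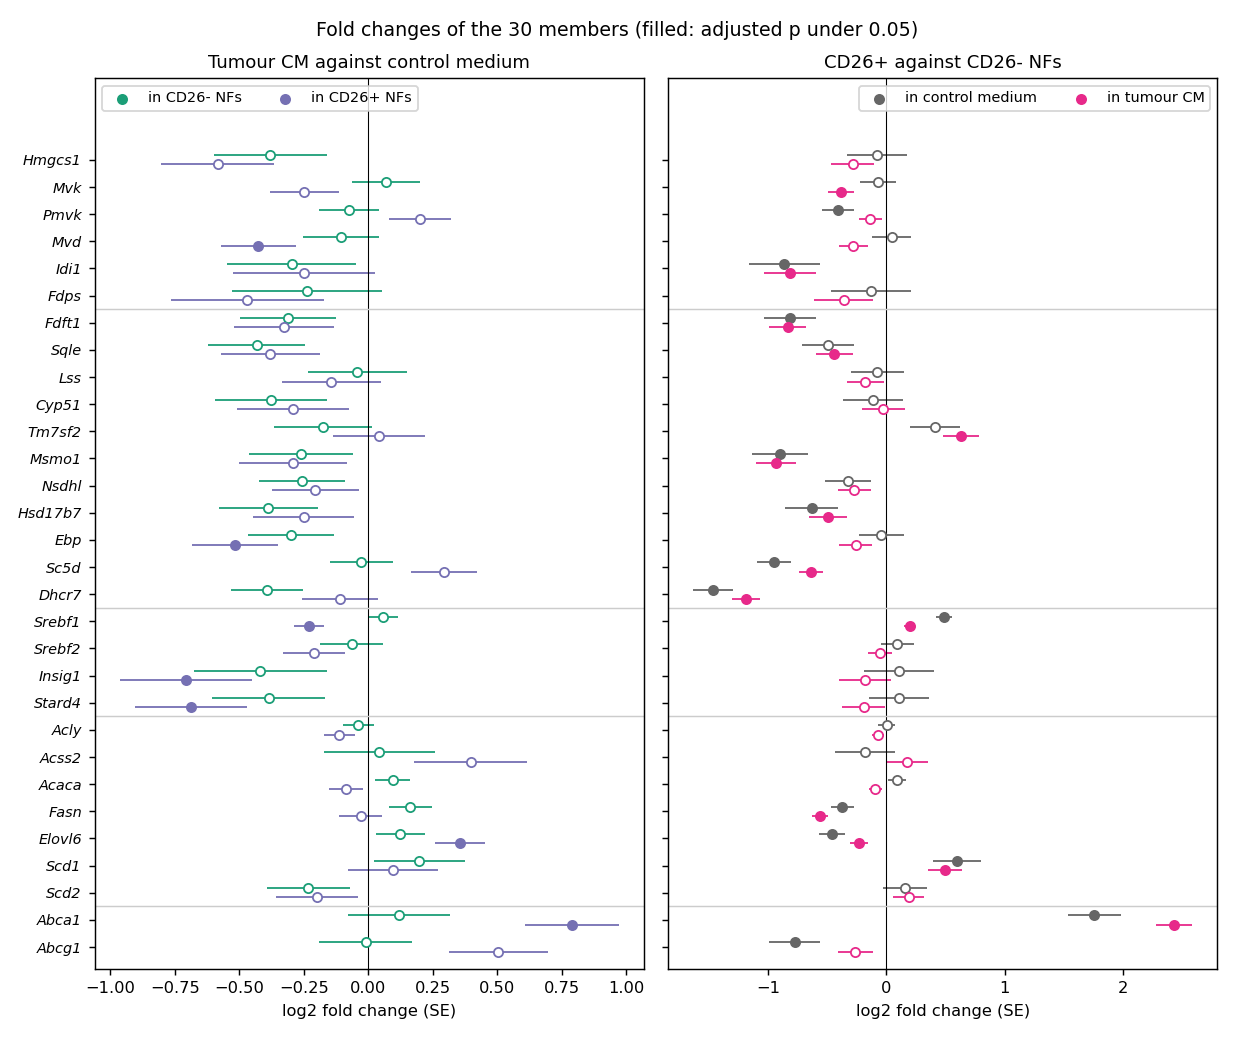
Log2 fold changes of the 30 members with SE bars, on the left for tumor CM against control medium in CD26- (green) and CD26+ NFs (purple), on the right for CD26+ against CD26- NFs in control medium (gray) and in tumor CM (pink). Filled symbols passed an adjusted p of 0.05 and gray lines separate the 5 roles; Abca1 lies farthest right in the right panel (1.76 and 2.43) and Dhcr7 farthest left (-1.47 and -1.18).

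Whether CM acted differently on the 2 cell types was tested as the difference between the CM effects. Of the members 1, Srebf1, passed, on the lower side, where 3.01% of all genes were lower and 4.53% higher. None was higher, at an unadjusted p under 0.05 there was 1 higher (13% of all genes) and 1 lower (12.3%), and DESeq2 called 1 lower and 0 higher, while RLE scaling and a fit with no filter on low counts called 0. The CM effect on Srebf1 was 0.06 (SE 0.06) in CD26- and -0.23 (SE 0.06) in CD26+ NFs, and the difference was -0.29 (SE 0.08, adjusted p = 0.043). Its adjusted p was 0.051 under RLE scaling and 0.14 with no filter. It did not pass in 9 of 18 fits that left out 1 library (adjusted p 0.052 to 0.12), those without CD26- control replicate 1 or 3, CD26- CM replicate 8 or 9, CD26+ control replicate 10, 11 or 12, or CD26+ CM replicate 14 or 17. Abca1 was at 19.0, 22.3 and 22.3 CPM in control and 13.4 to 32.6 CPM (median 24.5) in CM in CD26- NFs, and its CM effect differed between the cell types by 0.67 (SE 0.27, adjusted p = 0.12), which did not pass. With the line as a block 3 members passed, where 17.6% of all genes did, namely Srebf1 (adjusted p = 0.016) and, on the higher side, Sc5d (0.027) and Dhcr7 (0.039). Of the 17 sterol enzymes 9 had a positive and 8 a negative difference, with a median of 0.05 against 0.01 for all tested genes.

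The cell types were next compared within each medium. In control medium 10 members were lower in CD26+ than in CD26- NFs, where 25.4% of all genes were lower, and 3 were higher, where 25% were higher. In tumor CM 10 were lower, where 29.3% of all genes were, and 4 were higher, where again 29.3% were. Fdft1, Idi1, Msmo1, Hsd17b7, Sc5d, Dhcr7, Fasn and Elovl6 were lower in both media, and Srebf1, Scd1 and Abca1 were higher in both. Of the 17 sterol enzymes, 7 were lower in control medium (median log2 fold change -0.32, all tested genes 0.01) and 8 were lower and 1 higher in CM (median -0.36, all tested genes 0.00). Epithelial markers were lower in CD26+ NFs too, 8 of 9 tested in each medium, with log2 fold changes of those 8 from -2.48 to -1.47 in control medium. Of the 10 fibroblast markers, 9 were higher in CD26+ NFs in control medium and 8 in CM. In CM, all 10 dividing cell markers were lower in CD26+ NFs, against 0 in control medium. Immune cell markers summed to 40.8 to 45.3 CPM in CD26- and 24.4 to 29.9 CPM in CD26+ controls without overlap, and of 4 tested 2 were lower in CD26+ NFs in each medium. Endothelial markers summed to 4.65 to 5.69 CPM and 2.27 to 3.11 CPM in these controls, and of 4 tested 2 were lower in control medium and 1 in CM. The part of these lists in the differences was not tested.

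Among sterol enzymes, Dhcr7, Sc5d and Msmo1 had the largest differences between the cell types in control medium. Dhcr7 was at 94.5, 96.4 and 96.4 CPM in CD26- and at 31.5, 34.1 and 38.4 CPM in CD26+ controls. Its log2 fold change was -1.47 (SE 0.17, adjusted p = 1.6e-06) in control medium and -1.18 (SE 0.12, adjusted p = 2.1e-07) in CM, and the cell types did not overlap in either medium. Sc5d, which acts just before Dhcr7, was at 54.0, 56.5 and 60.3 CPM in CD26- and at 26.5, 29.6 and 32.3 CPM in CD26+ controls, with -0.95 (SE 0.15, adjusted p = 3.2e-05). In CM, where the groups overlapped (43.6 to 67.3 CPM and 29.9 to 45.8 CPM), it had -0.63 (SE 0.10, adjusted p = 3.9e-05). The C4 methyl sterol oxidase Msmo1 was at 71.2, 74.4 and 74.9 CPM in CD26- and at 36.7, 38.2 and 43.4 CPM in CD26+ controls, with -0.90 (SE 0.24, adjusted p = 0.0045), and stayed apart in CM with -0.93 (SE 0.17, adjusted p = 0.00016). Squalene synthase, Fdft1, was at 55.1, 56.2 and 59.1 CPM in CD26- and at 29.9, 32.5 and 34.4 CPM in CD26+ controls, with -0.82 (SE 0.22, adjusted p = 0.0049). In CM, where the groups overlapped slightly (38.9 to 61.5 CPM and 17.6 to 39.4 CPM), it had -0.83 (SE 0.16, adjusted p = 0.00021).

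Further enzymes of the route passed in 1 medium or in both. Idi1 was lower in control medium (-0.86, SE 0.30, adjusted p = 0.024) and in CM (-0.82, SE 0.22, adjusted p = 0.0042), as was Hsd17b7 (-0.63, SE 0.23, adjusted p = 0.027) with -0.49 in CM. Pmvk, phosphomevalonate kinase, passed in control medium (-0.41, SE 0.14, adjusted p = 0.020) and not in CM (-0.13, SE 0.10, adjusted p = 0.24). Mvk passed in CM (-0.38, SE 0.11, adjusted p = 0.0056) and not in control medium (-0.07, SE 0.15, adjusted p = 0.74), and Sqle likewise in CM (-0.44, SE 0.16, adjusted p = 0.025) and not in control medium (-0.49, SE 0.22, adjusted p = 0.074). For none of these 3 did the change between the media pass its own test (adjusted p = 0.33 for Pmvk, 0.31 for Mvk and 0.93 for Sqle). Tm7sf2, a sterol C14 reductase, went the other way, at 4.36, 6.00 and 6.57 CPM in CD26- and 6.52, 8.01 and 8.09 CPM in CD26+ controls, and passed in CM (0.63, SE 0.15, adjusted p = 0.0016). Lanosterol synthase, Lss, and the sterol dehydrogenase Nsdhl did not pass in either medium. With the line as a block, Nsdhl was lower in control medium (adjusted p = 0.0094) and in CM (0.0018), and Lss was lower in CM (0.023). The block also brought Sqle (0.0023) and Tm7sf2 (0.039) past the threshold in control medium. A fit of the control libraries alone, which has no block, called Sqle (adjusted p = 1.8e-05), Nsdhl (0.0030) and Scd2 (0.013) there as well. Without CD26+ CM replicate 13 or 18 Sqle passed in control medium too (0.043 and 0.036), and without replicate 16 or 18 Nsdhl passed in CM (0.036 and 0.019). Cyp51 passed neither with nor without the block, and without it its 95% interval in CM ran from -0.38 to 0.33.

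Part of these calls did not hold when 1 library was left out. In control medium, Hsd17b7 did not pass without CD26- replicate 1 or 3 or CD26+ replicate 10, 11 or 12 (adjusted p 0.060 to 0.071), Idi1 without replicate 1, 3, 11 or 12 (0.059 to 0.083), Pmvk without replicate 3, 11 or 12 (0.052 to 0.074) and Scd1 without replicate 2 or 10 (0.054 to 0.066). In CM, Sqle did not pass without CD26- replicate 7 or CD26+ replicate 13, 14 or 17 (0.052 to 0.059). With the line as a block 22 members differed between the cell types in CM, 17 lower and 5 higher, where 63% of all genes were called, and they included all 14 called without it. The 8 added were Hmgcs1 (adjusted p = 0.0087), Mvd (0.0097), Ebp (0.012), Insig1 (0.045) and Acly (0.048) with Lss and Nsdhl on the lower side, and Scd2 (0.0027) on the higher side. In control medium the block called 16 members, where 55.4% of all genes were called.

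Of the 7 fatty acid genes, 2 were lower and 1 higher in CD26+ NFs in each medium, where 25% to 29.3% of all genes were called in each direction. Fasn was at 325, 342 and 404 CPM in CD26- and at 263, 278 and 286 CPM in CD26+ controls, with a log2 fold change of -0.37 (SE 0.10, adjusted p = 0.0037), and in CM of -0.56 (SE 0.07, adjusted p = 1.7e-06). Elovl6 was lower in CD26+ NFs in control medium (-0.46, SE 0.11, adjusted p = 0.0020) and in CM (-0.23, SE 0.08, adjusted p = 0.017). Scd1, which makes oleate, went the other way, at 278, 309 and 322 CPM in CD26- and at 429, 462 and 485 CPM in CD26+ controls, with 0.60 (SE 0.20, adjusted p = 0.020), and in CM 0.50 (SE 0.14, adjusted p = 0.0061). Its close relative Scd2 did not pass in control medium (0.16, SE 0.19, adjusted p = 0.51), nor with the line as a block (adjusted p = 0.060), but did in the fit of the control libraries alone. Acly, Acaca and Acss2 did not pass. The interval for Acly in CM ran from -0.17 to 0.02. Of the regulators, Srebf1 was at 68.2, 74.1 and 78.6 CPM in CD26- and at 101, 101 and 107 CPM in CD26+ controls, with 0.49 (SE 0.07, adjusted p = 1.3e-05), and in CM 0.20 (SE 0.05, adjusted p = 0.0018). Srebf2 (0.09, SE 0.14, adjusted p = 0.61), Insig1 (0.11, SE 0.30, adjusted p = 0.79) and Stard4 (0.11, SE 0.25, adjusted p = 0.75) did not pass in control medium or in CM, apart from Insig1 in CM with the block and Stard4 in CM without CD26+ replicate 18 (adjusted p = 0.049).

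The efflux pumps differed between the cell types in opposite directions in control medium. Abca1 was at 19.0, 22.3 and 22.3 CPM in CD26- and at 61.0, 76.5 and 78.4 CPM in CD26+ controls, with a log2 fold change of 1.76 (SE 0.22, adjusted p = 4.3e-06). In CM its levels were 13.4 to 32.6 CPM in CD26- and 94.5 to 146 CPM in CD26+ NFs, far from overlapping, and the log2 fold change was 2.43 (SE 0.16, adjusted p = 1.7e-09). Abca1 was the 1 member in CM past the study's limit of 2 on the log2 scale, as 4.16% of all genes were. Abcg1 was at 12.9, 13.8 and 14.4 CPM in CD26- and at 6.74, 8.42 and 8.83 CPM in CD26+ controls, with -0.78 (SE 0.22, adjusted p = 0.0064). In CM the groups overlapped, at 9.13 to 19.8 CPM and 9.55 to 13.7 CPM, with -0.26 (SE 0.15, adjusted p = 0.14). Of 10 fat cell markers 6 were tested, and in CD26+ NFs 4 were higher in control medium and 4 higher and 1 lower in CM. All 10 summed to 45.6 to 69.5 CPM in CD26+ and 38.1 to 40.1 CPM in CD26- controls, and in CM to 49.5 to 118 CPM in CD26+ and 32.0 to 51.4 CPM in CD26- NFs. Their part in the result was not tested.

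**Figure D2:**
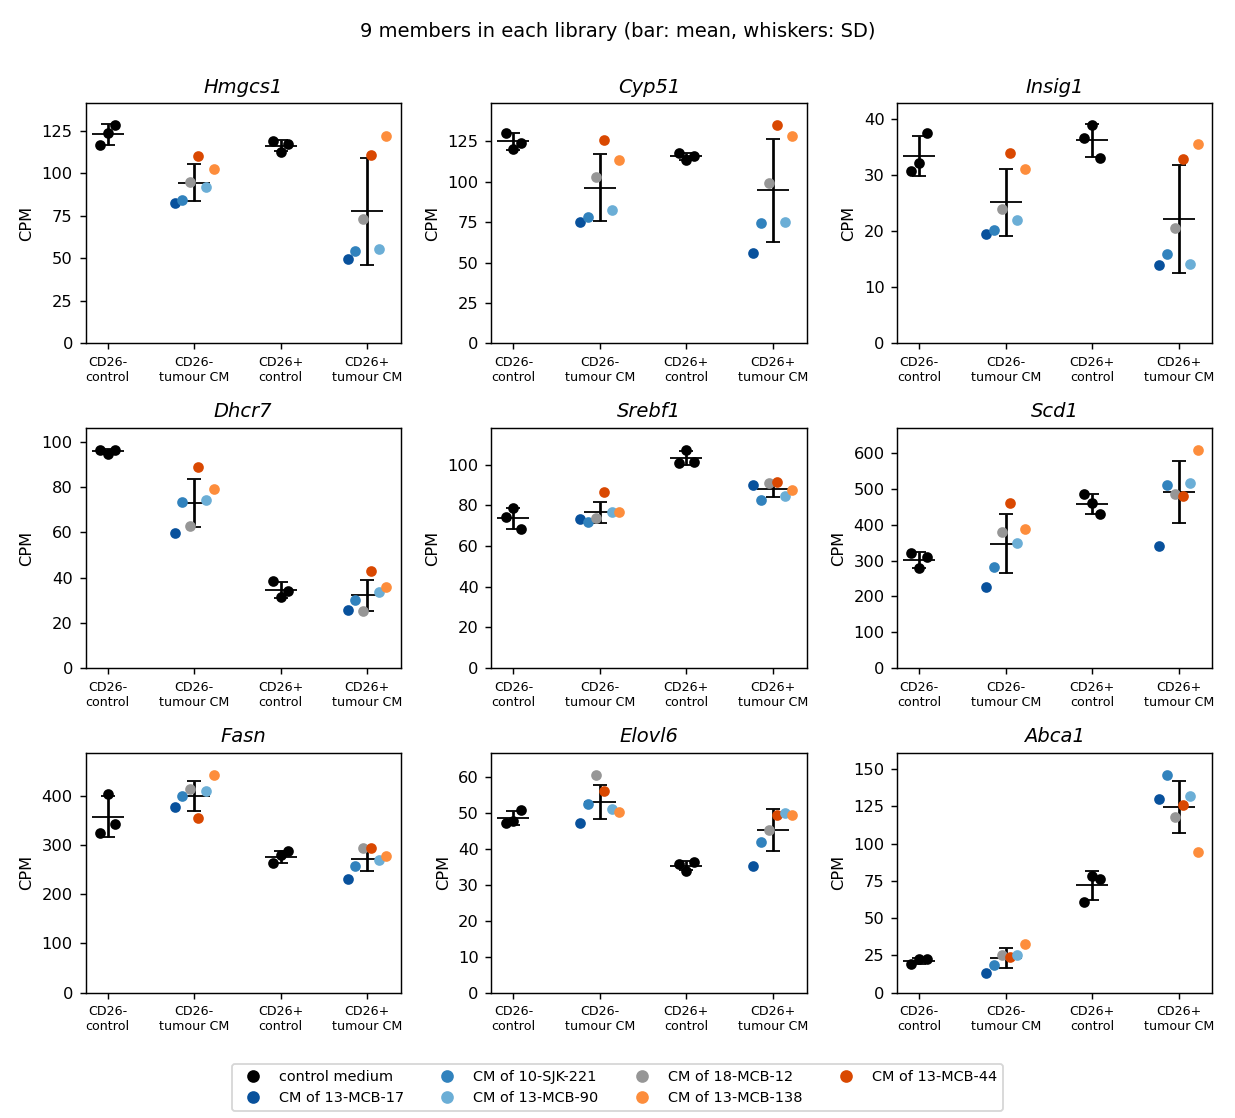
CPM of 9 members in each of the 18 libraries, by group, with the group mean (bar) and SD (whiskers) and the CM libraries colored by the tumor line that gave the CM. For Hmgcs1, Cyp51 and Insig1 the cultures in CM of 13-MCB-44 and 13-MCB-138 are the highest CM points in both cell types, while for Abca1 all CD26+ points (61.0 CPM or more) lie above all CD26- points.

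The last question was whether the lines differed in their effect. Over the 12 CM libraries, with the cell type as a covariate, 10 of the 30 members differed among lines at an adjusted p under 0.05, where 6.56% of the 13344 genes tested did. They were Fdft1, Lss, Cyp51, Nsdhl, Hsd17b7, Sc5d and Dhcr7 of the squalene and sterol ring steps, the regulators Srebf2 and Insig1, and Scd2. Cyp51 had the smallest adjusted p (0.0075), followed by Dhcr7 (0.0099), Scd2 (0.010) and Insig1 (0.017). At an unadjusted p under 0.05 there were 21 members, where 22.5% of all genes were, of which 4 were among the 6 mevalonate and isoprenoid genes, none of which passed the adjusted threshold. Abca1 (adjusted p = 0.97), Fasn (0.52), Abcg1 (0.45) and Srebf1 (0.39) were farthest from it. Each line gave 1 culture per cell type, and a line's effect cannot be told apart from that of its batch of CM.

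Levels by line are given in the order 13-MCB-17, 10-SJK-221, 13-MCB-90, 18-MCB-12, 13-MCB-138 and 13-MCB-44. Cyp51 was at 74.9, 78.1, 82.6, 103, 113 and 126 CPM in CD26- NFs and at 55.7, 74.6, 74.8, 99.2, 128 and 135 CPM in CD26+ NFs. In CD26+ NFs the first 4 lines lay below the control range of 114 to 118 CPM and the last 2 above it. Insig1 was at 19.5, 20.1, 22.0, 23.9, 31.0 and 33.9 CPM in CD26- and at 14.0, 16.0, 14.1, 20.6, 35.5 and 32.7 CPM in CD26+ NFs. Hsd17b7 was at 53.6, 66.5, 63.9, 76.9, 80.4 and 83.5 CPM in CD26- and at 30.5, 42.3, 39.7, 52.5, 66.0 and 71.0 CPM in CD26+ NFs. For both genes the last 2 lines gave the highest levels in both cell types. Hmgcs1, which did not pass among lines (adjusted p = 0.12), was at 82.3, 84.2, 92.2, 95.2, 103 and 110.3 CPM in CD26- and at 49.9, 54.5, 55.3, 73.2, 122 and 111 CPM in CD26+ NFs. Dhcr7 deviated from that order, at 59.7, 73.3, 74.2, 62.6, 79.2 and 88.9 CPM in CD26- and 25.6, 30.01, 33.6, 25.1, 35.7 and 43.0 CPM in CD26+ NFs, with low levels in CM of 18-MCB-12 too.

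Counted over the 17 sterol enzymes, CM of 13-MCB-44 and 13-MCB-138 gave the highest 2 levels for 12 enzymes in CD26- and for 16 in CD26+ NFs. CM of 13-MCB-17 gave the lowest level for 13 and 15 of them. These lines were singled out after their values had been seen, and the counts are a description. How often all tested genes ranked the lines this way was not counted. The highest over the lowest level among the 6 cultures was 1.22 to 2.17 (median 1.49) in CD26- and 1.47 to 3.56 (median 2.21) in CD26+ NFs. Relative to the control mean of the same cell type, the median log2 ratio of these enzymes in CD26+ NFs was -0.87 in CM of 13-MCB-17, -0.52 for 10-SJK-221, -0.49 for 13-MCB-90, -0.47 for 18-MCB-12, 0.11 for 13-MCB-138 and 0.23 for 13-MCB-44. In CD26- NFs, in the same order, it was -0.46, -0.39, -0.40, -0.25, -0.19 and 0.02. Below the range of the controls were 16 of 17 enzymes in CD26- and 15 of 17 in CD26+ NFs in CM of 13-MCB-17, against 5 and 2 in CM of 13-MCB-44. How many of all tested genes lay below that range was not counted. The median over all tested genes, with 1 CPM added to each level, was -0.01 to 0.00 in the 12 cultures.

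**Figure D3:**
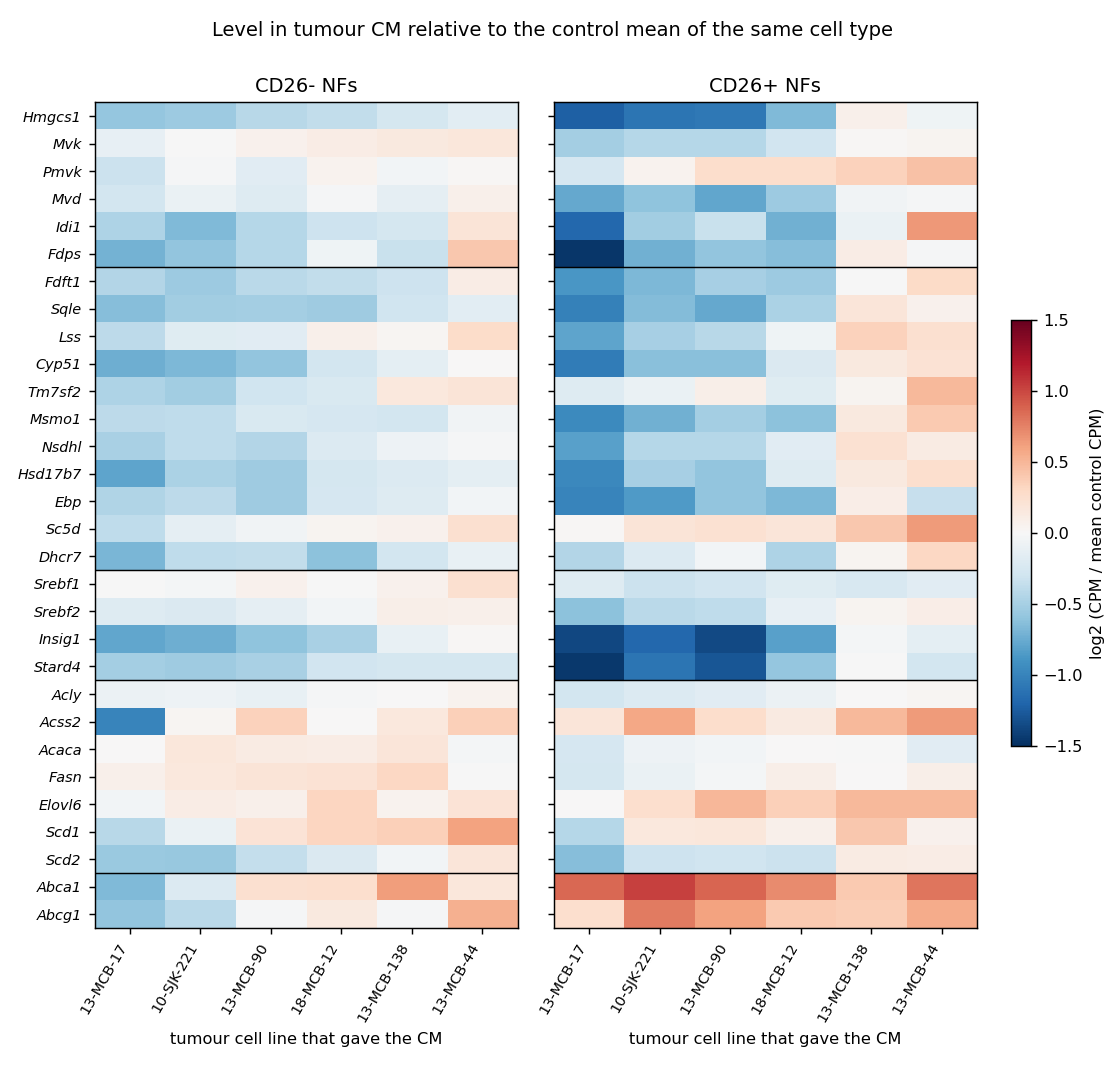
Log2 ratio of CPM in each CM culture to the mean of the 3 controls of the same cell type, for the 30 members (black lines separate the 5 roles) and the 6 tumor lines, in CD26- (left) and CD26+ NFs (right). The sterol enzymes are mostly blue under 13-MCB-17, with ratios down to -1.46 in CD26+ NFs (Fdps), and mostly pale or red under 13-MCB-138 and 13-MCB-44.

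Of the 7 fatty acid genes, 1 differed among lines at the adjusted threshold and 4 at an unadjusted p under 0.05, and neither efflux pump did at either. Scd2, which passed, was at 427, 423, 487, 538, 609 and 709.7 CPM in CD26- and at 447, 564, 565, 557, 759.6 and 752 CPM in CD26+ NFs, in the order of lines used above. Scd1 had an adjusted p of 0.064, with its lowest level in CM of 13-MCB-17 in both cell types (226 and 341 CPM). Over the 7 fatty acid genes the median log2 ratio to control ran from -0.09 (13-MCB-17) to 0.18 (13-MCB-44) in CD26- and from -0.26 (13-MCB-17) to 0.12 (13-MCB-138) in CD26+ NFs. The highest Abca1 level in CD26- NFs (32.6 CPM) and the lowest in CD26+ NFs in CM (94.5 CPM) both came with 13-MCB-138.

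**Figure D4:**
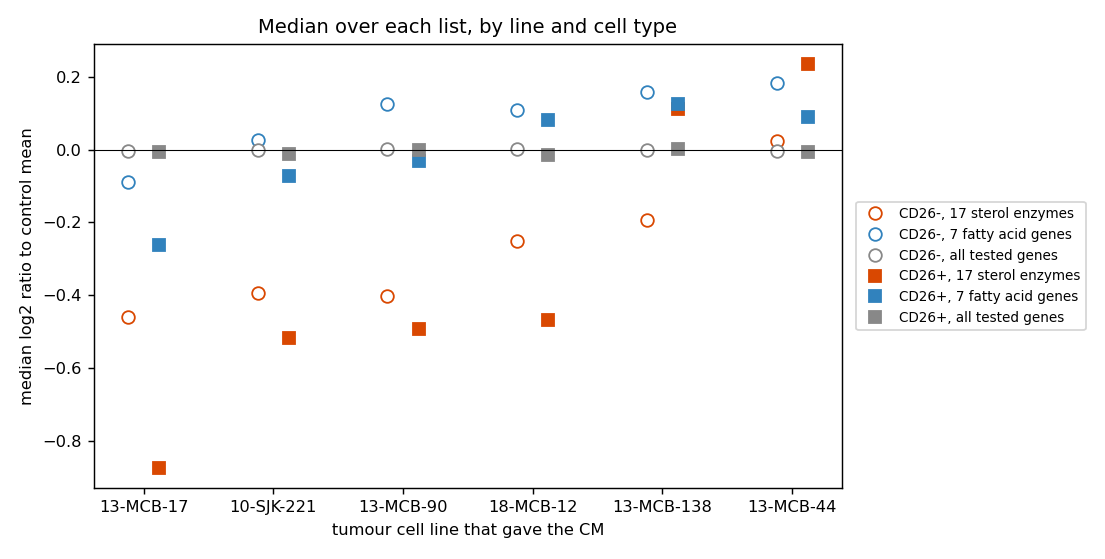
Median log2 ratio to the control mean over the 17 sterol enzymes (orange), the 7 fatty acid genes (blue) and all tested genes (gray), by the tumor line that gave the CM, with open circles for CD26- and filled squares for CD26+ NFs. The sterol enzymes run from -0.87 to 0.23 in CD26+ and from -0.46 to 0.02 in CD26- NFs, and all tested genes stay near 0.

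Marker levels differed among these cultures as well. Dividing cell markers summed in CD26+ NFs to 273 CPM in CM of 13-MCB-17, 988 CPM in CM of 13-MCB-138 and 483 CPM in CM of 13-MCB-44, and in CD26- NFs to 1024, 979 and 856 CPM. Fibroblast markers summed to 12622, 21491 and 15455 CPM for the same lines in CD26- and to 30267, 52139 and 41306 CPM in CD26+ NFs. Fat cell markers summed for these lines to 45.1, 51.4 and 32.0 CPM in CD26- and to 118, 77.0 and 49.5 CPM in CD26+ NFs. Epithelial markers were highest in CM of 13-MCB-44 in both cell types (5184 and 1738 CPM) and stood at 4105 and 860 CPM in CM of 13-MCB-138. Immune cell markers were highest in CM of 13-MCB-44 too (55.0 CPM in CD26- and 44.2 CPM in CD26+ NFs), as were endothelial markers in CD26+ NFs (4.44 CPM). The part of these lists in the differences of the members among lines was not tested.

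The number of members called among lines depended on the lines included. It was 4 without 13-MCB-44, 6 without 13-MCB-17, 6 without 13-MCB-90, 6 without 18-MCB-12, 7 without 10-SJK-221 and 14 without 13-MCB-138, while 3.23% to 10.6% of all genes were called in these fits. Cyp51 and Dhcr7 passed in all 10 fits run, which include the other scaling, no filter and DESeq2.

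Of 55 other genes of sterol and lipid metabolism, 53 were tested between groups. In CD26- NFs CM raised 4, where 7.88% of all genes were higher, and lowered 4, where 7.28% were lower. Those with the smallest p were the triglyceride enzyme Dgat2 (0.76, SE 0.09, adjusted p = 0.00013), the acetyl-CoA carboxylase partner Mid1ip1 (0.53, SE 0.10, adjusted p = 0.0026), the phospholipid enzyme Lpcat3 (0.37, SE 0.08, adjusted p = 0.0040) and malic enzyme, Me1 (-0.23, SE 0.05, adjusted p = 0.0079). In CD26+ NFs CM raised 10, where 15.2% of all genes were higher, and lowered 8, where 13.4% were lower, with the lipoprotein receptor Scarb1 (0.76, SE 0.09, adjusted p = 1.0e-05), Lpcat3 (0.60, SE 0.08, adjusted p = 2.1e-05), cholesterol 25-hydroxylase, Ch25h (2.80, SE 0.40, adjusted p = 7.2e-05), and Dgat2 (0.55, SE 0.09, adjusted p = 0.00018) having the smallest p. The CM effect differed between the cell types for 2, both on the higher side, where 4.53% of all genes were, namely Scarb1 (0.81, SE 0.12, adjusted p = 0.0027) and the fatty acid elongation enzyme Hsd17b12 (0.48, SE 0.09, adjusted p = 0.0063).

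Between the cell types, 13 of the 53 were higher in CD26+ NFs in control medium, where 25% of all genes were, and 9 were lower, where 25.4% were. In CM 18 were higher and 14 lower, where 29.3% of all genes were higher and as many lower. Of 11 tested genes of sterol handling and LXR, 7 were higher and 1 lower in control medium and 8 higher and 1 lower in CM, and of 5 further sterol synthesis genes 1 was lower in control medium and 4 in CM, to be read against the same shares of all genes. The smallest p-values in control medium were those of Scarb1 (-1.23, SE 0.10, adjusted p = 5.1e-08), Acadl of fatty acid oxidation (-0.91, SE 0.08, adjusted p = 1.8e-07), the SREBP-cleaving protease Mbtps1 (0.51, SE 0.05, adjusted p = 2.6e-07) and Gpam, the first enzyme of glycerolipid synthesis (0.97, SE 0.11, adjusted p = 1.2e-06). In CM they were those of Acadl (-0.85, SE 0.06, adjusted p = 4.3e-09), Mylip, a ligase for the LDL receptor (1.60, SE 0.13, adjusted p = 2.0e-08), the lysosomal sterol carrier Npc2 (0.62, SE 0.05, adjusted p = 2.5e-08) and Mbtps1 (0.40, SE 0.03, adjusted p = 2.9e-08). Among lines 3 of the 52 tested there passed, where 6.56% of all genes did. They included the fatty acid desaturase Fads2 (adjusted p = 0.011) and the fatty acyl-CoA synthetase Acsl3 (0.045).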

How the data were processed

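RNA (integrity number above 7) was made into stranded polyA libraries and sequenced single-end on a HiSeq 2500. The authors deposited raw read counts per gene. The submitters' processing notes name HISAT2 2.1.0, HTSeq and GRCm38, and the strand setting and annotation release are not given in the sources used here. The 1 row without a gene held 0 counts and was left out. CPM used TMM-scaled totals, and RPKM used exon lengths of the GENCODE mouse annotation. Counts were tested with edgeR 4.0.16 (quasi-likelihood, TMM, filterByExpr) in a 4-group model over 18 libraries, with Benjamini-Hochberg adjustment over all 14273 genes, and among lines in the 12 CM libraries. A call was an adjusted p under 0.05. The scripts were tested on simulated data. Alternatives were DESeq2 1.42.0, RLE or upper-quartile scaling, no filter, the study's log2 limit of 2, each library or line left out, the compared groups alone, and the line as a block. Residuals of CD26- and CD26+ libraries of the same line correlated by 0.25 to 0.41 in 6 pairs, against -0.32 to 0.24 in 30 other pairs, so the lines given in the labels pair the samples. Replicates differed by more than counting noise (chi-square per degree of freedom of 3.03 or more). All 30 members are named by role, and of the other pathway genes at most the 4 with the smallest p per comparison among those called with at least 5 CPM in a group. One allele of the tumor model and the values of one other pathway gene are not reported here. The members and lists were chosen with earlier results of these data known.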

Additional observations from a re-analysis of the deposited data

Results flagged for a closer look

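In 3 of 60 combinations of a member and a CM group, 1 of the 6 cultures lay apart from the others by Dixon's test, and chance marks about 1 group in 20. All 3 were in CD26- NFs. Fdft1 was at 61.5 CPM in CM of 13-MCB-44, against 38.9 to 45.8 CPM in the other 5 cultures, and Srebf1 was at 86.6 CPM in the same library, against 72.0 to 76.9 CPM. Acss2 was at 2.40 CPM in CM of 13-MCB-17, against 4.76 to 6.08 CPM. The CM effect on Srebf1 differed between the cell types by -0.288 on the log2 scale (edgeR's quasi-likelihood test, adjusted p = 0.043).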

How the results depend on the processing

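Of 35 calls of single members in the 5 comparisons, 24 held in every alternative other than the study's log2 limit, 11 were lost in at least 1 of those, and 0 changed direction. That limit left 1 of the 35, Abca1 between the cell types in CM. With the line as a replicate block the number of members called was 10 for CM in CD26- NFs, 18 for CM in CD26+ NFs, 22 between cell types kept in CM and 3 for the difference of the CM effects, without it 0, 7, 14 and 1. Between the cell types in control medium it was 16 against 13. Fits of the compared groups alone called 6 members for CM in CD26- and 4 in CD26+ NFs. The share of all genes called was not recorded for these fits, for those without 1 library or for DESeq2 between groups. DESeq2 called 1 for CM in CD26- NFs. Among lines it called 16, where 9.69% of all genes were called, and no filter gave 18, where 8.33% were. With the study's log2 limit the counts were 0 for CM in CD26+ NFs, 0 between the cell types in control medium, 1 in CM and 0 for the difference, which was also 0 under RLE scaling and 0 without the filter. Leaving out 1 library gave 0 to 1 calls for CM in CD26- NFs, 2 to 12 in CD26+ NFs, 10 to 14 between the cell types in control medium, 13 to 19 in CM and 0 to 1 for the difference. Leaving out a line gave 6 (13-MCB-17), 4 (13-MCB-44), 6 (13-MCB-90) and 6 (18-MCB-12) among lines. The cause of these shifts was not tested. With 1 culture per line and cell type, the effect of a line within 1 cell type was not tested.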
